A study of Bos taurus with 8 samples.

Results

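Cytokines, chemokines and their receptors form the signalling system through which bacterial lipopolysaccharide (LPS), once sensed, spreads an inflammatory response. Their members were taken as the probes whose gene name in the array files begins with IL, CCL, CXCL, CCR, CXCR, CX3C, TNFSF or TNFRSF followed by its number, or equals TNF or GRO1. The rule found 146 probes for 145 gene names, of 15008 probes for 14952 names on the array, and CXCR2 was the name with more than 1 probe.

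The samples came from 4 Holstein bull cattle (numbers 19, 20, 23 and 24) out of 11 in a trial of a high-grain challenge that brings on subacute ruminal acidosis (SARA), a fall in rumen pH during which LPS is set free. The cattle were 5 to 6 months old, carried a rumen fistula, and received egg-yolk immunoglobulin with anti-LPS antibody at 4 g per head, or 0 g as the control, once a day for 14 days through the fistula. All of them ate roughage for 11 days, a high-grain diet for 2 days and roughage again for 1 day, and the samples were taken 2 days after the challenge. Each animal gave 1 array at 4 g and 1 array at 0 g, so that the 8 arrays form 4 within-animal pairs, with 4 arrays per dose. A dose of 2 g was not analysed here. The design text describes a Latin square in which an animal takes each dose in turn, so the arrays of an animal come from different periods. Which dose an animal had first was not given, and period cannot be told apart from dose within an animal. The tissue label says liver, whereas the extraction text speaks of rumen epithelium.

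As background, LPS reaching the liver through the portal vein is taken up by Kupffer cells, the resident macrophages, which release TNF and interleukins of the IL1 and IL6 families. Hepatocytes carry receptors for these signals and answer with acute phase proteins, while CXC chemokines such as CXCL8 draw in neutrophils and CC chemokines mainly monocytes and lymphocytes. Inhibitors such as the IL1 receptor antagonist and decoy receptors limit the same signals.

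The arrays were Agilent 1-colour arrays with probes of 60 bases, and a level below is the log2 processed signal minus the 75th percentile of its array. Hepatocyte markers (10 of 10) were well above background on every array, with list means of 4.87 to 5.39 at 4 g and 4.85 to 5.45 at 0 g. Kupffer cell and macrophage markers (8 on the array) were likewise measured on every array, with list means of 1.55 to 2.12 at 4 g and 1.72 to 2.07 at 0 g. T and NK lymphocyte markers averaged −3.71 to −3.21 at 4 g and −3.48 to −2.89 at 0 g. Of these 15 markers, 10 were well above background on every array, and GZMA was on 0 arrays. Neutrophil markers averaged −2.45 to −2.24 at 4 g and −2.46 to −1.94 at 0 g. Of these 10 markers, 8 were well above background on every array, and S100A9 and CAMP were on 0 arrays. Of the 14 squamous and rumen epithelium markers, 5 to 8 were measured per array, and KRT14, KRT4, DSG1, DSG3, TP63 and SPRR3 were well above background on none. In whole tissue, fewer cells of a type and less RNA per cell cannot be told apart.

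Some arrays stood apart or went against their labels. In animal 19 the 4 g array was dim, as was the 0 g array in animal 20, with 75th percentiles of the processed signal of 125.8 and 126.3 against 218.0 to 311.7 on the other 6. The 0 g array of animal 23 carried pancreatic acinar transcripts, with a list mean of 6.83 on that array against −5.01 to −3.14 on the other 7. A further check used the 30 probes with 2 separate levels (a gap of more than 2 log2 units, and neither level made up of the 2 dim arrays). Of these, 15 split the arrays of animals 19 and 20 into pairs, and 15 of the 15 did so by animal. In animals 23 and 24, 12 probes split the arrays into pairs, of which 11 did so by dose, 1 crosswise and 0 by animal. The arrays labelled as animals 23 and 24 therefore do not pair by animal in these probes. Whether the animal numbers or the dose labels there are exact, and whether these probes move with the dose, cannot be told apart. Every difference within animals rests on these labels, and values of animals 19 and 20 alone are given for some members only.

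Several probe sequences bear on what the measurements mean, and those of the members that recur below are shown here in the 5′ to 3′ direction, with positions in the cattle assembly UMD 3.1 as the files give them. The first probes carry the receptor chains with the widest spread over arrays and the 2 members that led on the higher side. Capitals mark the letters discussed after the sequences.
IL20RA, chr9:75979364-75979423, minus strand: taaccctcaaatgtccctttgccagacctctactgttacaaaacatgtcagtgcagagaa
IL22RA1, chr2:129378095-129378154, plus strand: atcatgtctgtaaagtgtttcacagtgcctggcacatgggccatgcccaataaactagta
TNFRSF9, chr16:46306367-46306426, plus strand: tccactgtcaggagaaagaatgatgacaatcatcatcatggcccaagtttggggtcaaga
CCL28, chr20:31410167-31410226, plus strand: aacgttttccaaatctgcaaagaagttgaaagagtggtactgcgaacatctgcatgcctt
GRO1, chr6:90824548-90824607, plus strand: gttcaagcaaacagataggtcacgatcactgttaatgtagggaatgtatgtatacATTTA
CXCL2, chr6:90823252-90824156, plus strand: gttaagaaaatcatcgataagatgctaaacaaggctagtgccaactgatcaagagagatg
CXCL8, chr6:90563357-90563416, plus strand: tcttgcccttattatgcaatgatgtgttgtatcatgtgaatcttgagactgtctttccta
CXCL3, chr6:90812955-90813014, plus strand: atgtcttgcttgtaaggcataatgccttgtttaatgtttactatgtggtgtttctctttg
CXCR1, chr2:106938414-106938473, minus strand: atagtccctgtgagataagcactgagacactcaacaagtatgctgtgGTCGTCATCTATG
CXCR2, chr2:106913318-106913377, plus strand: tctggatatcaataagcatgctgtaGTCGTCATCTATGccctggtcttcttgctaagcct
CXCR2 (CXCR1 accession), chr2:106936904-106936963, minus strand: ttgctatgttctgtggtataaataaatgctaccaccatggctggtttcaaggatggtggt
IL6, chr8:23287847-23287906, plus strand: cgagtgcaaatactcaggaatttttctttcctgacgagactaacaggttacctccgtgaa

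The probe named IL6 in the files carries a transcript accession that the RefSeq gene table now assigns to LOC517016, so it gives no level for interleukin 6, the main inducer of acute phase proteins. It was well above background on 0 arrays. Of the 146 probes, 104 were named through such an accession and 42 through a current symbol, and 6 had a current symbol that differs from the file's name. The others were CXCL6 (now CXCL5), IL4I1 (an accession of NUP62, a nuclear pore protein), CXCR7 (ACKR3), IL28RA (IFNLR1) and 1 of the 2 CXCR2 probes, whose accession belongs to CXCR1. The CXCR1 probe and the other CXCR2 probe, whose genes encode paralogous receptors for CXCL8, share a run of 13 bases, in capitals above. The capitals in GRO1 mark ATTTA, the core of the AU-rich element of unstable cytokine messages. Read on the probe strand only, 12 member probes (8.22%) held these letters, against 6.78% of all 15008 probes, and the reverse complement TAAAT was in 14 member probes and 8.14% of all probes. Probes are short stretches of a transcript, and a match says nothing of the rest of it.

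The first question was which members the liver samples express at a measurable level. A probe counts as measured on an array where Feature Extraction marked it as well above background. Of the 146 member probes, 67 were measured on all 8 arrays (45.9%, against 61.6% of all probes) and 37 on 0 arrays (25.3%, against 16.1% of all probes). Interleukin ligands made up much of the second group: 19 of 36 probes with interleukin names were measured on 0 arrays. Among them were IL2, the T cell growth factor, IL4 and IL5, the cytokines of type 2 immunity, and IL12A and IL12B, which form IL12. IL17A, IL17F, IL21, IL22, IL3 and IL9 were others. The 19 also include the probe named IL6, which gives no level for interleukin 6. Of the receptors, 9 of 12 TNF receptor probes, 16 of 31 interleukin receptor probes and 7 of 17 chemokine receptor probes were measured on all 8 arrays, and the differences between roles were not tested. The 8 interleukin receptor probes measured on none were IL17RA, IL17RB, IL17RD, IL20RB, IL21R, IL23R, IL28RA and IL1RAPL2. These counts describe signal over background for single probes and set no level of 1 gene against that of another.

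**Figure D1:**
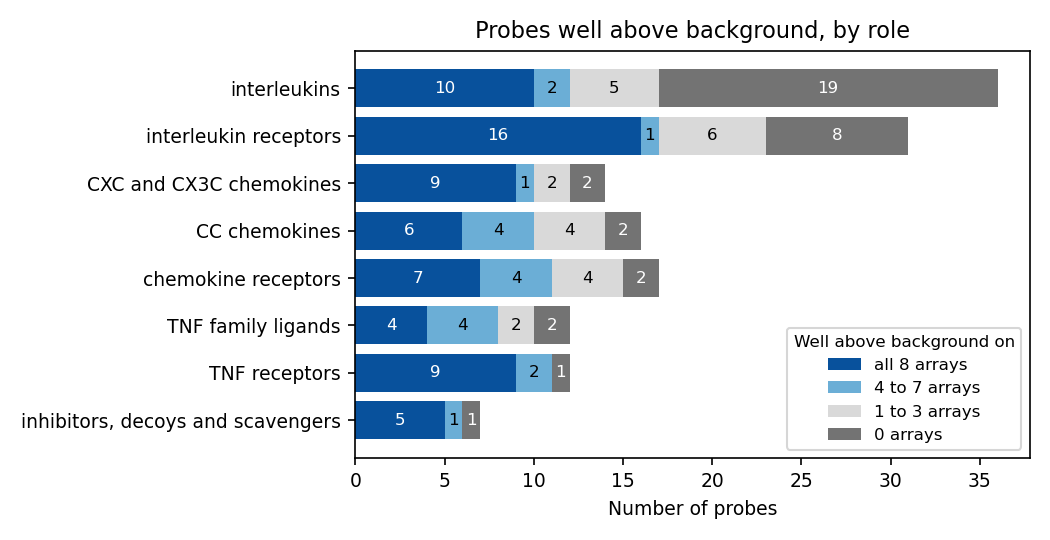
Number of probes (horizontal axis) in each role, parted by the number of arrays on which the probe was well above background. Interleukin ligands, counted with the probe named IL6, hold 19 of the 37 probes measured on 0 arrays. Of the TNF receptor probes, 9 of 12 were measured on all 8. The IL4I1 probe, measured on all 8, is left out.

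Among the chemokines, 9 of 14 CXC and CX3C probes and 6 of 16 CC probes were measured on all 8 arrays. The probes for CCL3, a macrophage chemokine, CCL26, CXCL2 and CXCL13, which guides B cells, were measured on none. CCL4, a relative of CCL3, was measured on 2 arrays, both at 4 g (animals 19 and 23). Its levels were −4.56, −5.80, −5.73 and −5.88 at 4 g in animals 19, 20, 23 and 24, against −5.52, −5.82, −5.94 and −6.23 at 0 g. CXCL9, a chemokine induced by interferon gamma, was measured on 2 arrays, both at 0 g, and CCL20, which attracts CCR6-bearing cells, on 1 array at 4 g. CCR2, the monocyte receptor for CCL2, was measured on 1 array, the 0 g array of animal 23. That array had 104 member probes measured, against 72 to 94 on the others. It also measured 80.4% of all probes, against 64.4% to 74.4% on the others. Of the 9 members measured on 1 array only, 6 were measured there (CCR2, IL12RB2, IL17RE, IL1RL2, IL22RA1 and TNFSF4). The same held for 671 of all 943 probes measured on 1 array only, so this was not particular to the members. The part of its pancreatic transcripts in this was not tested.

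Some members lie close together on the chromosomes, by the positions of their probes. With neighbours at most 500000 bases apart, 12 stretches held 3 or more member probes, 49 of the 146 in all. The stretch on chromosome 6 from 90563357 to 90824607 held CXCL8, CXCL6, CXCL3, CXCL2 and GRO1, the neutrophil-attracting CXC chemokines. The stretch on chromosome 11 from 46349453 to 46705674 held 7 members of the IL1 family (IL1A, IL1B, IL37, IL36G, IL36A, IL36RN and IL1RN), of which 3 were measured on 0 arrays. Another on chromosome 11, from 6754112 to 7220972, held 5 of its receptors (IL1R2, IL1R1, IL1RL2, IL1RL1 and IL18RAP). Members of 1 stretch did not share a sign of difference between the doses: in the chromosome 6 stretch the log2 differences were 0.34 for CXCL8, 0.05 for CXCL6, −0.65 for CXCL3 and 0.47 for GRO1.

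The main comparison asked whether cytokine and receptor expression differed by antibody dose, 4 g against 0 g, within animals. With the animal as a block in limma, 0 of the 86 tested member probes passed an adjusted p of 0.05, as did 0 of all 10985 tested probes (0.0%). A probe was tested where at least 4 of 8 arrays measured it. At an unadjusted p under 0.05 there were 3 members (TNFRSF9, CCL28 and IL20RA), or 3.49% against 1.1% of all tested probes, all with an adjusted p of 1.00 in limma. The members were balanced, with 42 higher and 44 lower at 4 g and a median log2 difference of −0.02, against 0.02 over all tested probes. The median member interval reached 0.76 log2 units to either side, and for 45 of the 86 members (52.3%, against 64.3% of all tested probes) it excluded a 2-fold change in either direction. In 0 members did the 4 arrays at 4 g and the 4 at 0 g fail to overlap, against 0.61% of all tested probes. Data were simulated from these arrays with independent noise on each array, so spread that arrays share, as on the 2 dim arrays, was left out. In these data the fit found 0% of changes of 1 log2 unit, 50% of changes of 2 and 73% of changes of 3.

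**Figure D2:**
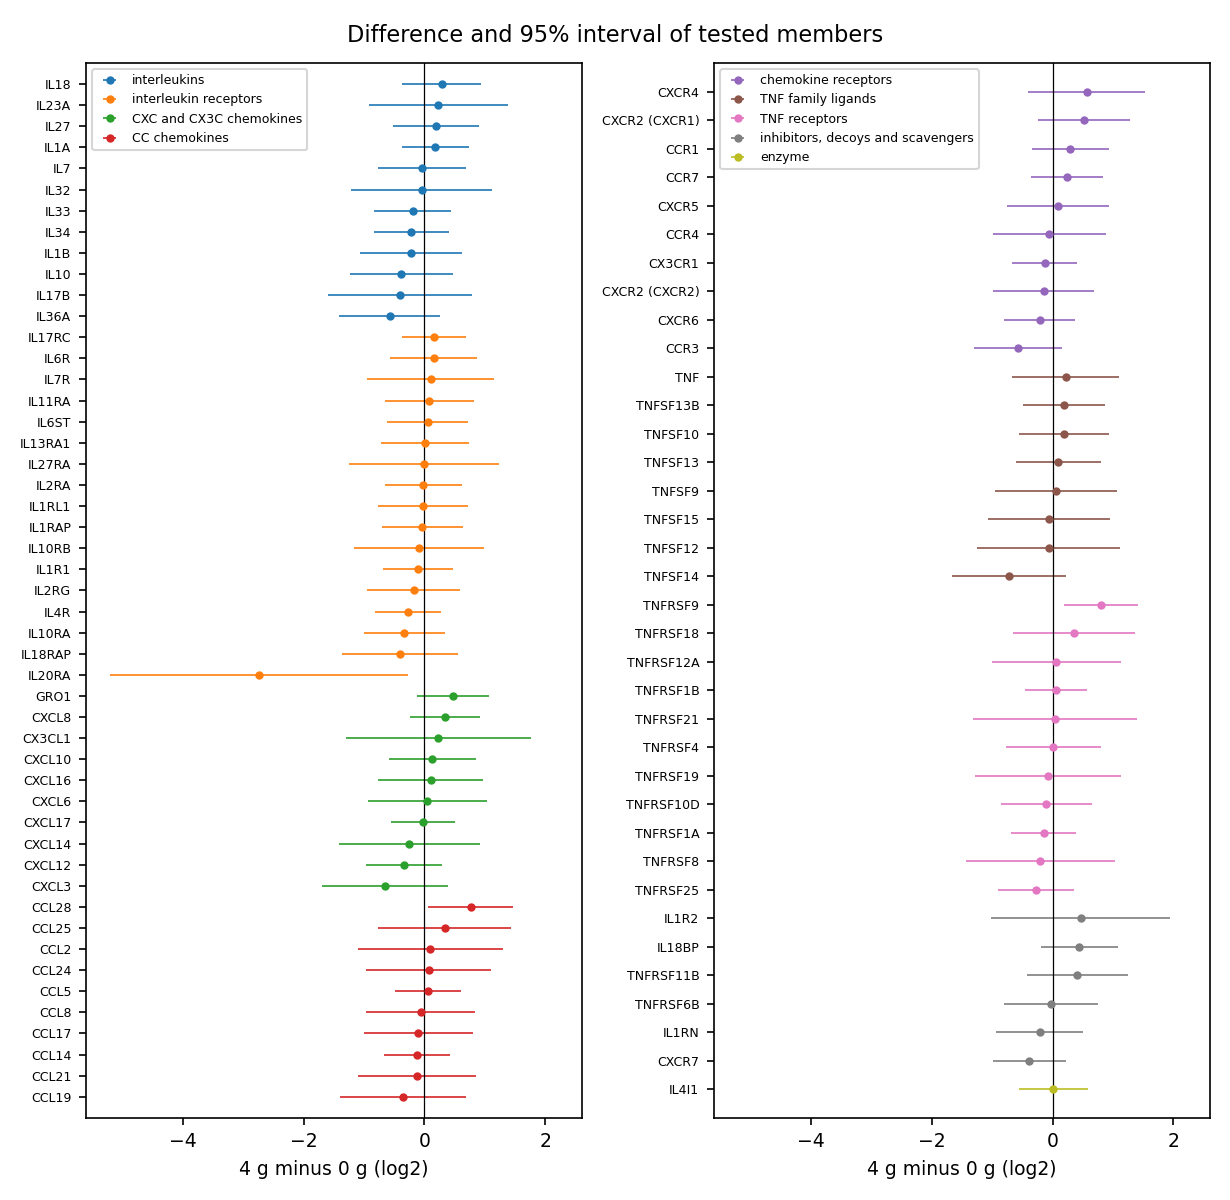
Log2 difference 4 g minus 0 g (horizontal axis) with its 95% interval from limma for the tested members, ordered within role, with 1 member not shown; the name in brackets is the current symbol of the probe's accession. IL20RA stands at −2.74, and the other members shown lie between −0.72 and 0.80.

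TNFRSF9, a costimulatory receptor of activated T cells, had the smallest p on the higher side. Its levels at 4 g were −3.79, −3.52, −4.38 and −3.31 in animals 19, 20, 23 and 24, against −4.39, −4.78, −4.71 and −4.33 at 0 g. All 4 animals were higher at 4 g, while the ranges of the doses overlapped through animal 23. The log2 difference was 0.80 (95% interval 0.19 to 1.42, limma, adjusted p = 1.00), and 1 of the 4 arrays at 0 g did not measure it. With normexp background correction the difference was 0.01. In animals 19 and 20 alone it was 0.93.

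CCL28, a chemokine of mucosal epithelia that attracts plasma cells, differed by 0.76 (SE 0.29, adjusted p = 1.00 in limma). Its levels at 4 g were −1.92, −4.42, −2.28 and −2.38 in animals 19, 20, 23 and 24, against −2.30, −4.71, −3.84 and −3.19 at 0 g. Animal 20 was low at both doses, and all 4 animals were higher at 4 g, animals 23 and 24 by 1.57 and 0.81 and animals 19 and 20 by 0.39 and 0.29. With normexp the difference was 0.13.

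IL20RA encodes the alpha chain of the receptors for IL19, IL20 and IL24. Its levels at 4 g were 0.58, −3.73, −3.36 and −4.12 in animals 19, 20, 23 and 24, against 0.60, −3.31, 1.93 and 1.1 at 0 g. Thus both arrays of animal 19 were high, both of animal 20 were low, and in animals 23 and 24 the 0 g arrays were high and the 4 g arrays low. The fitted difference of −2.74 (95% interval −5.21 to −0.27, limma, adjusted p = 1.00) comes from animals 23 and 24, where it was −5.29 and −5.22. In animals 19 and 20 it was −0.02 and −0.43. The same arrays were high, or low, for GIMAP4, GIMAP6, LOC768255, SUN3 and ULBP3, which were picked for having this split. IL20RA and these genes are themselves among the probes that split animals 23 and 24 by dose. GIMAP4, a GTPase of lymphocytes, stood at 4.32, 0.07, −0.25 and −0.08 at 4 g and at 4.08, 0.23, 3.28 and 3.41 at 0 g in the same order of animals.

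Without the 2 dim arrays and with no block, 5 of 10985 probes passed in limma, and IL20RA was the member among them (−4.95, adjusted p = 0.00534). That set of arrays holds 1 array each of animals 19 and 20 and all 4 of animals 23 and 24, and in animals 19 and 20 alone the difference was −0.22. The ligand genes IL19, IL20 and IL24, next to IL10 on chromosome 16, and the partner chain IL20RB were measured on 0 arrays.

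**Figure D3:**
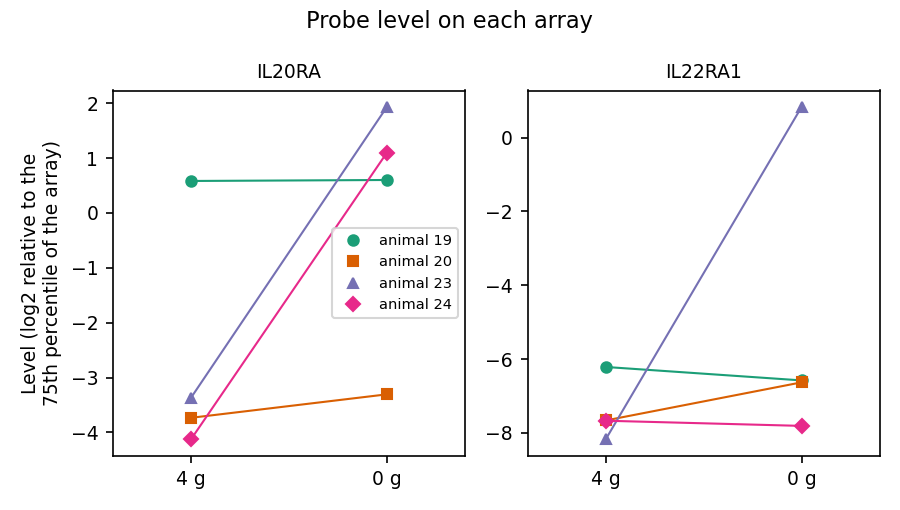
Level of the IL20RA and IL22RA1 probes (vertical axis, log2 relative to the array's 75th percentile) on each of the 8 arrays, 4 g on the left and 0 g on the right, with lines joining the arrays labelled as 1 animal. IL20RA has 2 levels, near 1 and near −4, and IL22RA1 is high on the 0 g array of animal 23 alone, at 0.83.

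The ligands that start an inflammatory response were examined next. TNF, measured on 6 of 8 arrays, had levels at 4 g of −4.85, −4.54, −5.42 and −4.93 in animals 19, 20, 23 and 24, against −4.71, −5.83, −4.66 and −5.41 at 0 g. Animals 20 and 24 were higher at 4 g and animals 19 and 23 lower, and the 2 doses overlapped throughout. IL1B, the other early macrophage cytokine, stood at −1.64, −0.41, −0.85 and −0.86 at 4 g, against −1.49, −1.29, −0.24 and 0.14 at 0 g. It was lower at 4 g in 3 of 4 animals and 0.88 higher in animal 20. IL1A averaged −2.95 ± 0.59 at 4 g and −3.13 ± 0.59 at 0 g (SD, n = 4 each), and the SD comes largely from animal 20, which was highest at both doses.

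IL18, a cytokine stored by macrophages, averaged 0.03 ± 0.59 at 4 g and −0.25 ± 0.46 at 0 g (SD, n = 4 each). IL10, which dampens macrophages, averaged −1.43 ± 0.30 at 4 g and −1.05 ± 0.57 at 0 g (SD, n = 4 each). Its difference of −0.38 (SE 0.35) came mainly from animal 23 (−1.55), and without that animal it was 0.00. IL36A, an epithelial IL1 relative, differed by −0.58 (SE 0.35) and was highest, at −3.02, on the 0 g array of animal 19. That array also had the highest mean of the squamous and rumen epithelium list (−3.14, against −5.10 to −4.02 on the others), whose part in this was not tested. Of the 12 tested interleukins, 4 were higher and 8 lower at 4 g, with a median of −0.12.

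The neutrophil chemokines did not share a sign. GRO1, the bovine counterpart of CXCL1, had levels at 4 g of −3.49, −1.94, −3.42 and −3.57 in animals 19, 20, 23 and 24, against −3.80, −2.56, −4.32 and −3.64 at 0 g. It was higher at 4 g in all 4 animals by 0.06 to 0.90, while the spread between animal 20 and the others was wider than that. CXCL8 (interleukin 8) stood at −2.84, −2.26, −3.17 and −2.98 at 4 g, against −2.84, −2.92, −3.72 and −3.10 at 0 g. It was higher at 4 g in 4 of 4 animals, by 0.00 in animal 19. The log2 differences were 0.47 (SE 0.24) for GRO1 and 0.34 (SE 0.24) for CXCL8, and they came to 0.08 and 0.03 with normexp.

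CXCL3, of the same neighbourhood, stood at 4.08, 3.42, 2.99 and 1.51 at 4 g, against 3.38, 4.69, 3.25 and 3.30 at 0 g. Animals 20, 23 and 24 were lower at 4 g and animal 19 was higher, and its 2 highest values were on the dim arrays. Its difference was −0.65 (SE 0.43). The same sign in all 4 animals was found for 4 members on the higher side (TNFRSF9, CCL28, GRO1 and CXCL8; 4.65%, against 2.92% of all tested probes) and 1 on the lower side (IL20RA; 1.16%, against 2.16%).

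**Figure D4:**
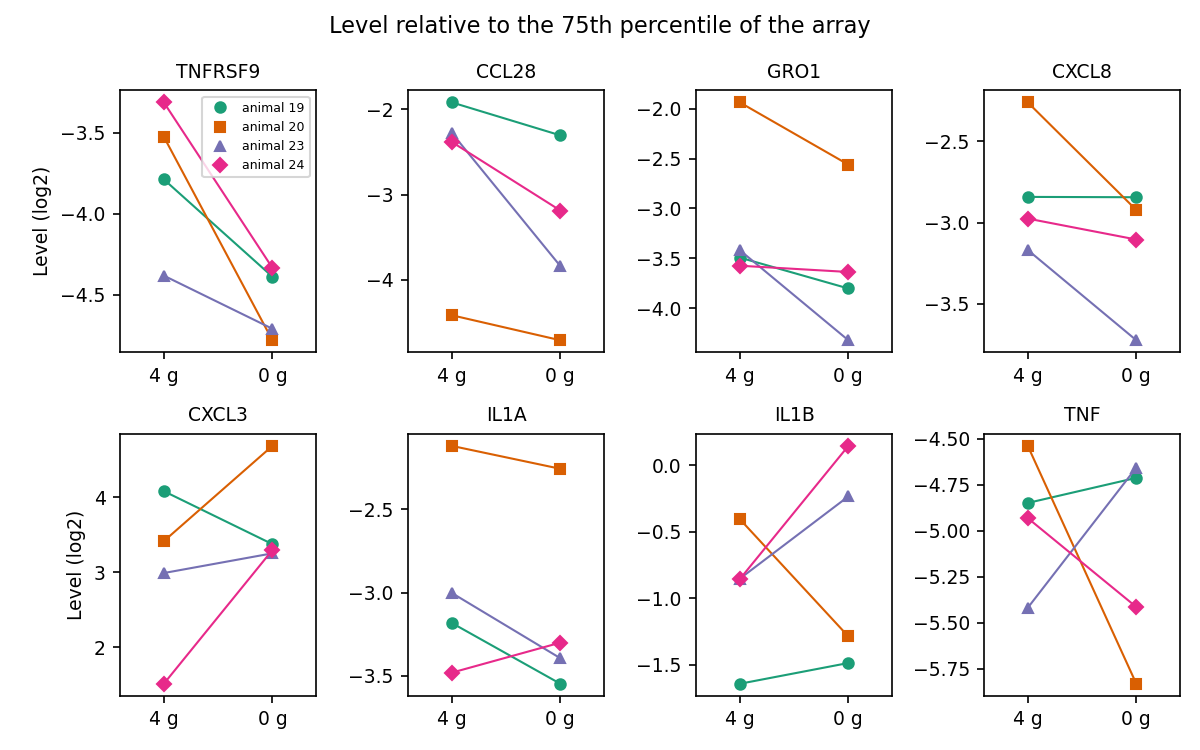
Levels (vertical axis, log2 relative to the array's 75th percentile; each panel has its own range) of 8 members on the 4 g arrays, left, and the 0 g arrays, right, with lines joining the arrays labelled as 1 animal. TNFRSF9, CCL28, GRO1 and CXCL8 are higher at 4 g in every animal, by 0.00 for CXCL8 in animal 19, and animal 20 lies apart in GRO1, IL1A and CCL28.

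For the chemokines that attract monocytes and lymphocytes, the doses overlapped and the signs differed. CCL2, the monocyte attractant, had levels of −0.96, 1.37, 0.14 and −0.50 at 4 g in animals 19, 20, 23 and 24, against −0.79, 0.00, −0.68 and 1.12 at 0 g. Its within-animal differences ran from −1.62 in animal 24 to 1.37 in animal 20. CCL5, a T cell and NK cell attractant, was steadier, at −0.51 ± 0.31 at 4 g and −0.57 ± 0.12 at 0 g (SD, n = 4 each). CXCL10, an interferon-induced chemokine, differed by 0.13 (SE 0.30) and CX3CL1, a membrane-bound chemokine, by 0.23 (SE 0.63). CXCL12, a stromal chemokine that retains CXCR4-bearing cells, differed by −0.34 (SE 0.26). The CXCL12 difference was −0.03 in animals 19 and 20 alone and −0.66 in animals 23 and 24 alone. Of 10 tested CC members 5 were higher and 5 lower at 4 g (median 0.00), and of 10 tested CXC and CX3C members 6 were higher and 4 lower (median 0.07).

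Of the receptors for chemokines, 6 of 11 tested were higher and 5 lower at 4 g, with a median of 0.04. CXCR4 differed by 0.57 (SE 0.40), but it was measured on 6 arrays and the difference was −0.08 with normexp. CCR3, the eosinophil receptor for eotaxins, differed by −0.57 (SE 0.30). The 2 probes named CXCR2 had opposite signs, 0.52 (SE 0.31) for the one with the CXCR1 accession and −0.15 (SE 0.35) for the other. By their current symbols they stand for 2 genes, CXCR1 and CXCR2. CCR1, a receptor for CCL5 on monocytes, was higher at 4 g in animals 23 and 24, by 0.67 and 0.73, and lower in animals 19 and 20, by 0.09 and 0.13 (4 g minus 0 g of −0.09 and −0.13). CCR7, the receptor for CCL19 and CCL21, differed by 0.25 (SE 0.25) and CX3CR1 by −0.13 (SE 0.22).

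Receptors for the IL1, IL6 and TNF signals were measured on all 8 arrays. TNFRSF1B, the second TNF receptor, had the smallest range over the 8 arrays of all tested members, 0.50, with 2.96 ± 0.21 at 4 g and 2.90 ± 0.11 at 0 g (SD, n = 4 each). TNFRSF1A, the first, averaged 1.77 ± 0.29 at 4 g and 1.92 ± 0.10 at 0 g, and IL1R1, the signalling IL1 receptor, 2.47 ± 0.10 at 4 g and 2.58 ± 0.27 at 0 g (SD, n = 4 each). For these 3 genes the 95% intervals of the difference lay within −0.69 and 0.58. IL6R, the IL6-binding chain, averaged 2.00 ± 0.27 at 4 g and 1.85 ± 0.36 at 0 g, and its signalling partner IL6ST 0.66 ± 0.38 at 4 g and 0.61 ± 0.34 at 0 g (SD, n = 4 each).

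Among the other receptor chains, IL10RA differed by −0.33 (SE 0.28), IL10RB by −0.09 (SE 0.44), IL4R by −0.27 (SE 0.23), IL13RA1 by 0.00 (SE 0.30), IL2RG, the chain shared by receptors of the IL2 family, by −0.17 (SE 0.32), and IL1RAP, the accessory chain of the IL1 receptor, by −0.04 (SE 0.28). IL18RAP, the accessory chain of the IL18 receptor, differed by −0.41 (SE 0.40) and was measured on 1 array at 4 g and 3 at 0 g. In all, 6 of 17 tested interleukin receptors were higher and 11 lower at 4 g, with a median of −0.02.

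In the TNF family, TNFSF10 (TRAIL, a death ligand) differed by 0.18 (SE 0.31) and TNFSF13B (BAFF, a survival factor of B cells) by 0.19 (SE 0.28). TNFSF14 (LIGHT) differed by −0.72 (SE 0.39), with animal 24 on the other side at 0.52. TNFSF14 was measured on 3 arrays at 4 g and 4 at 0 g, and stood at −6.98 on the dim 4 g array of animal 19. Its difference was −1.33 in animals 19 and 20 alone, −0.12 in animals 23 and 24 alone and −0.13 with normexp. Of 8 tested ligands 5 were higher and 3 lower at 4 g (median 0.08), and of 11 tested receptors 6 were higher and 5 lower (median 0.01). TNFRSF18 (GITR, a T cell receptor) differed by 0.36 (SE 0.42) and TNFRSF25, the receptor for TNFSF15, by −0.28 (SE 0.26).

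The inhibitors had mixed signs. IL18BP, which binds and blocks IL18, stood at 0.09, 0.03, −0.97 and 0.35 at 4 g in animals 19, 20, 23 and 24, against −0.47, 0.08, −1.19 and −0.68 at 0 g, higher at 4 g in 3 of 4 animals and lower by 0.04 in animal 20 (4 g minus 0 g of −0.04). Animal 23 was lowest at both doses. IL1RN, the IL1 receptor antagonist, differed by −0.21 (SE 0.30) and TNFRSF11B (osteoprotegerin, a decoy for TNFSF11) by 0.41 (SE 0.35). CXCR7, a scavenger of CXCL12, differed by −0.38 (SE 0.25). The CXCR7 difference was −0.06 in animals 19 and 20 alone and −0.70 in animals 23 and 24 alone. The decoy IL1 receptor IL1R2 differed by 0.47 (SE 0.61), with −1.86, 0.45, 1.98 and 1.30 in animals 19, 20, 23 and 24. Of 6 tested members of this role 3 were higher and 3 lower.

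Genes of the same pathways outside the naming rule were read from 3 lists. Of 25 tested cytokines and receptors with other names, 10 were higher and 15 lower at 4 g (median −0.09), of 21 genes of JAK-STAT signalling 13 were higher and 8 lower (median 0.02), and of 23 genes that relay IL1, TLR and TNF signals 16 were higher and 7 lower (median 0.12), against a median of 0.02 over all tested probes. In each list 0 genes passed an adjusted p of 0.05 in limma and 0 had an unadjusted p under 0.05. SOCS3, the feedback inhibitor of IL6 signalling, and STAT3, the factor that IL6 and IL10 activate, had the smallest p of the JAK-STAT list. They were picked for this, and both were lower at 4 g, whereas 13 of the 21 genes were higher. SOCS3 differed by −1.04 (SE 0.53, adjusted p = 1.00 in limma), with −0.07, −2.45, −2.03 and 0.39 in animals 19, 20, 23 and 24. Its levels were −5.04, −6.41, −6.72 and −5.18 at 4 g in that order, against −4.96, −3.96, −4.69 and −5.57 at 0 g. Those of animals 20 and 23 at 4 g lie within the range of CCL3, measured on 0 arrays (−7.64 to −6.06). STAT3 differed by −0.74 (SE 0.51), with −2.42, 0.85, −0.83 and −0.58. The pairs of animals 19 and 20 each hold a dim array.

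The arrays of animals 23 and 24 sat in slide row 2 and those of animals 19 and 20 in row 1, so row and animals cannot be told apart. The dose difference in row 2 minus that in row 1 passed an adjusted p of 0.05 for 0 members in limma, and 3 had an unadjusted p under 0.05 (3.49%, against 0.983% of all tested probes). These were IL20RA (−5.03, SE 0.56, adjusted p = 0.507), IL1R2 (2.35, SE 0.90, adjusted p = 1.00) and IL18RAP (−1.56, SE 0.62, adjusted p = 1.00). TNFSF15, a T cell costimulator, followed at −1.54 (SE 0.68), IL1B at −1.17 (SE 0.64), CCL24 (eotaxin 2) at 1.36 (SE 0.77) and CXCL14, an epithelial chemokine, at −1.29 (SE 0.92). In simulated data this test found 0% of changes of up to 3 log2 units. With normexp the count at an unadjusted p under 0.05 was 25 of 86 members, with a member median of 1.03, and 0 members passed. Irrespective of dose, 2 members (2.33%, against 3.57% of all tested probes) were higher on all 4 row 2 arrays, and 8 members (9.3%, against 6.04%) were lower there. The 2 were IL10RB and IL18, and the 8 were CCL21, CXCL17, CXCL3, CXCL8, IL23A, IL2RA, TNFRSF25 and TNFRSF4.

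Differences between the animals, as labelled, were tested with the F-test of the same limma fit, and 0 members passed an adjusted p of 0.05. At an unadjusted p under 0.05 there were 7 (8.14%, against 2.74% of all tested probes): CCL28, GRO1, CCR7, CCL21, the CXCR2 probe with the CXCR1 accession, IL1A and TNFRSF4, each with an adjusted p of 0.985 in limma. For 6 members both arrays of animal 20 lay above the other 6 (6.98%, against 3.22% of all tested probes): CCL14, CXCL17, GRO1, IL1A, IL33 and IL4R. IL1A stood there at −2.12 at 4 g and −2.26 at 0 g, against −3.48 to −3.00 at 4 g and −3.55 to −3.30 at 0 g in the other animals. One of these 2 arrays, at 0 g, was dim. CCR7 was lowest in animal 19 (−4.49 at 4 g and −4.81 at 0 g), against −3.65 to −2.72 at 4 g and −3.58 to −3.15 at 0 g in the others. CCL21, a lymphatic chemokine, was higher in animals 19 and 20, at 1.36 and 1.12 at 4 g and 0.47 and 2.01 at 0 g, than in animals 23 and 24, at −0.63 and −1.08 at 4 g and −1.21 and −0.01 at 0 g. TNFRSF4 (OX40, a T cell costimulatory receptor) had the same order, with 0.63 and −0.49 at 4 g and −0.19 and 0.45 at 0 g, against −1.37 and −0.96 at 4 g and −1.32 and −1.17 at 0 g. For CCL21 and TNFRSF4 this split of the animals is also that of the slide rows, and the 2 dim arrays lay above the other 6.

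Array brightness moved with many probes, and with a smaller share of the members than of all tested probes. Both dim arrays lay above the other 6 for 18 tested members (20.9%, against 24.4% of all tested probes) and below them for 11 (12.8%, against 19.8%). The 18 included IL6R, IL13RA1, IL1RL1, IL1RN, CXCL3, CCL21, TNFSF10 and TNFRSF4, and the 11 included IL18, IL10RB, IL1RAP, CXCL10, CXCR4 and CX3CL1. Since 1 dim array was at 4 g (animal 19) and the other at 0 g (animal 20), such members took opposite signs of 4 g minus 0 g in these animals. IL10RB, a chain shared by receptors of the IL10 family, is an example, at −1.49 in animal 19 and 1.30 in animal 20, against −0.04 in animal 23 and −0.14 in animal 24. In all, 61 of 86 members had opposite signs in animals 19 and 20 (70.9%, against 75.8% of all tested probes), and 47 had opposite signs in animals 23 and 24 (54.7%, against 53.9%). With normexp 13 rather than 29 members lay outside the range of the other arrays.

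**Figure D5:**
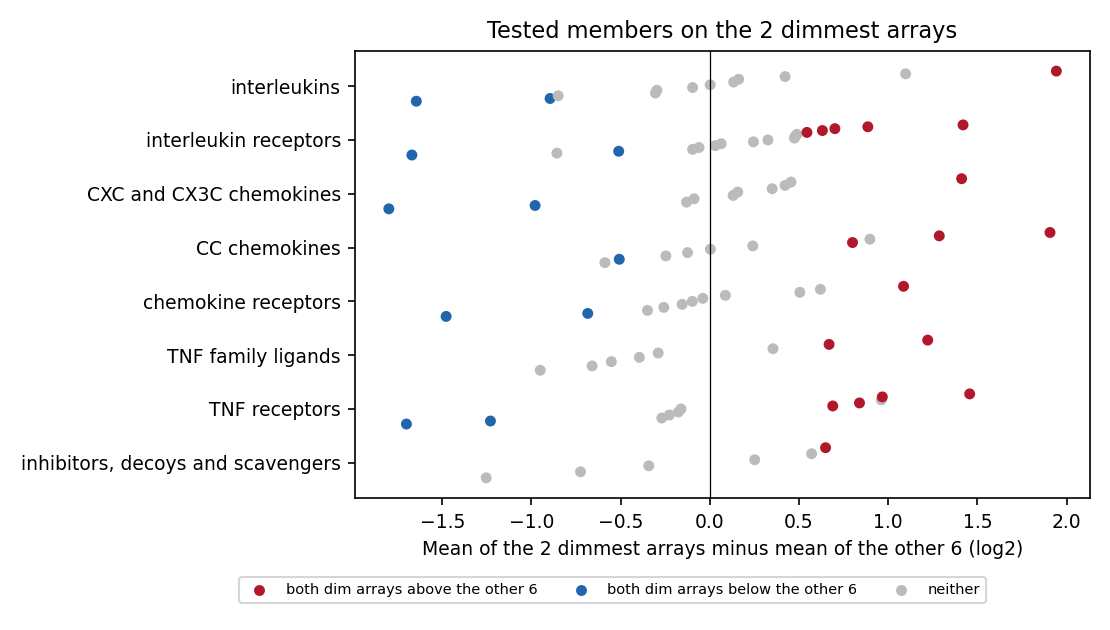
Mean level of the 2 dim arrays minus the mean of the other 6 (horizontal axis, log2) for the tested members by role, with each point a member. The 18 members with both dim arrays above the other 6 are red, the 11 with both below are blue, and the rest are grey; the IL4I1 probe is left out.

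A single array stood more than 2 log2 units above the next for 1 of 109 members measured on any array (0.917%, against 1.56% of 12592 probes), and more than 2 units below for 0 (0.0%, against 0.238%). The member was IL22RA1, the receptor chain for IL22 of epithelial, liver and pancreatic cells. It was at 0.83 on the 0 g array of animal 23 and between −8.17 and −6.22 on the other 7, where it was not well above background. This is the array with the acinar transcripts, whose part in the value was not tested. Leaving that array out, with no block, gave TNFRSF9 0.75, CCL28 0.65, GRO1 0.23, CXCL8 0.15 and IL20RA −2.12, and 0 members passed.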

How the data were processed

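RNA of 8 samples was hybridised to 1-colour arrays from 500 ng of total RNA per the labels. The deposited spot intensity values are Feature Extraction processed signals (version 11.0.1.1 per the file headers, 9.5 per the submitters' processing notes), with mean and local background intensity beside them. The authors' deposited log2 table correlated with these signals at 1.00 and was centred on the 75th percentile. All arrays lay on 1 slide. Outlier spots (48) were left out, 0 spots were saturated, spots of a probe were averaged, and log2 processed signals were centred per array on the 75th percentile. Testing covered probes that at least 4 of 8 arrays marked as well above background, and was done with limma 3.58.1 in R 4.3.3 (lmFit, eBayes, animal as block, Benjamini-Hochberg over 10985 probes, threshold 0.05). The block follows the animal numbers in the titles, by which each animal is its own control. Deviations from the dose means correlated at −0.19, −0.18, 0.21 and 0.13 between the arrays of animals 19, 20, 23 and 24. The fits were tested on simulated data with independent noise on each array. Intervals are 95% intervals, and the number of arrays limits the precision. Nothing says whether samples were processed separately, so p-values cover the spread between these samples.

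Names came from a RefSeq gene table, used for names alone, and the normexp alternative used an offset of 50. With this offset the levels of dim probes depend less on their own signal. Their smaller differences or changed signs with normexp therefore cannot decide whether the main values hold. Members, gene lists and roles were chosen with earlier results of these data known. Named members were, per direction, the 12 with the smallest unadjusted p (the brightest probe per gene), the 10 smallest p each for slide row and animals, members with 1 array more than 2 log2 units apart, and 44 listed genes whatever their value, of which 42 names were on the array. Alternatives covered background correction, scaling, filter, block, weights, variance model, left-out animals or arrays, and slide row. Counts of non-overlapping arrays under other scalings were added after seeing the data. The values of 1 member are not reported here, and counts over members include it.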

Additional observations from a re-analysis of the deposited data

Results flagged for a closer look

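Values below are levels (log2 relative to the array's 75th percentile) that stood far from the other 3 arrays of their dose by Dixon's criterion for 4 values. Chance alone flags about 1 in 20 groups, and 8 values were found in 116 groups of the named members, which is near that rate. On the 4 g arrays, GRO1 was highest in animal 20 (−1.94, others −3.57 to −3.42), IL20RA in animal 19 (0.58, others −4.12 to −3.36) and CCL4 in animal 19 (−4.56, others −5.88 to −5.73), and CXCL10 was lowest in animal 19 (−1.40, others −0.11 to −0.02). On the 0 g arrays, CCR1 was highest in animal 20 (−0.66, others −1.15 to −1.11), as were CXCL3 (4.69, others 3.25 to 3.38) and IL13RA1 (1.15, others 0.26 to 0.41), and IL22RA1 was highest in animal 23 (0.83, others −7.81 to −6.58). Of the 8 values, 6 lie on the 2 dim arrays (animal 19 at 4 g, animal 20 at 0 g), whose part in these values was not tested. Of all tested probes, 27.2% and 17.9% were highest on these arrays, and 19.7% and 15.1% were lowest there.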

How the results depend on the processing

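The count of members past an adjusted p of 0.05 between doses was 0 under each alternative run except the one without the 2 dimmest arrays and with no block, where 5 probes and 1 member (IL20RA) passed and the members' median was 0.067. At an unadjusted p under 0.05, where the main fit gave 3 members, there was 1 with normexp, with the filter on all 8 arrays, with no replicate block, with the animal as a random replicate block and without the 0 g array of animal 23. There were 7 with array weights, 5 in slide row 2 only and 0 in slide row 1 only. Leaving out each animal in turn gave 1 to 8 members (8 without animal 19, 1 without animal 23 or 24) and medians from −0.11 without animal 19 to 0.031 without animal 20. The block lost 0 adjusted calls, since there were none with or without it. With normexp, 13 rather than 29 members had the 2 dim arrays outside the range of the others, 4 rather than 10 parted by slide row, and 1 rather than 5 kept 1 sign in all 4 animals. The tests of slide row by dose and of animals called 0 members under each alternative run, although with normexp 12 of all probes passed for slide row by dose, 25 rather than 3 members had an unadjusted p under 0.05, and the median moved to 0.64 over all tested probes and 1.03 over the members, against 0.03 and −0.04 in the main fit. Of the 53 named members tested, 11 changed sign with normexp (among them CXCR4, TNFRSF11B, TNFRSF18, TNF and the CXCR2 probe with the CXCR1 accession), 2 with quantile normalization and 16 in slide row 1 only, and their cause was not tested. Dim signals limit TNFRSF9, CCL28, TNF and CXCR4, which some arrays did not measure. They also limit other named members, among them TNFRSF18 (measured on 5 arrays) and the CXCR2 probe with the CXCR1 accession (6). TNFSF14, TNFRSF11B, TNFSF13B and the other CXCR2 probe were measured on 7 arrays each.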
